A study of Mus musculus with 15 samples.

Results

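The urea cycle and ammonia genes described here are 10 genes: urea cycle enzymes, their mitochondrial carriers and the enzymes that release ammonia. They were taken by symbol from a list of the pathway's genes, with no threshold on measured values, though the list was chosen with earlier results of these data known. All 10 were in the count table of 15302 genes, and all 10 passed the filter on low counts, as did 12274 genes in all. Liver RNA of wild-type mice was read by RNA-seq in 15 libraries, 5 in each of the groups Vehicle, GDF15 and PairFed. All animals had been put on a MASH diet, which brings on a fatty and inflamed liver, and kept at about 29°C from 8 weeks of age. They were housed singly and assigned at random to groups matched on body weight and composition. The GDF15 group received recombinant GDF15, a stress hormone that lowers food intake through a hindbrain receptor, under the skin once daily in the morning at 1 nmol/kg. The Vehicle group was given vehicle, and the daily food of the PairFed group was set to what the GDF15 animals had eaten on the previous day. Whether PairFed animals were injected, their sex, the length of treatment and the hour of tissue collection were not stated.

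The urea cycle turns ammonia, a toxic product of amino acid breakdown, into urea that the kidney excretes, and the full cycle runs in the hepatocytes of the liver. Its first steps are in the mitochondrion and the rest are in the cytosol, so carriers must move ornithine, citrulline and aspartate across the inner membrane. Hepatocytes around the portal vein hold most of the cycle, while those around the central vein trap the ammonia that escapes as glutamine. Protein intake, fasting, glucagon and glucocorticoids are known to raise the transcripts of the cycle.

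Across the groups, GDF15 livers held more of the transcripts of the cycle than Vehicle livers: 7 of the 10 genes rose, against 2.02% of all genes tested, and none fell. Cps1, which encodes the enzyme that fixes ammonia, rose to 1.69 times the Vehicle level and was also higher in GDF15 than in PairFed. Pair feeding alone took none of the 10 past the threshold of the test, where 0.285% of all genes tested changed. In 4 of the 10, all PairFed libraries were above all Vehicle libraries, against 2.21% of all genes. The summed share of the 10 genes was taken of each library's total scaled by edgeR's TMM factors, not of the raw total. Those factors were 1.00 to 1.09 in Vehicle, 0.968 to 1.05 in PairFed and 0.916 to 1.02 in GDF15. The share was 0.633 to 0.772% in Vehicle, 0.702 to 0.863% in PairFed and 0.919 to 1.13% in GDF15. The GDF15 range did not overlap either of the others.

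The stretches of the genome just before the starts of Otc, Ass1 and Slc25a15 are shown because these genes rose in GDF15 and the RefSeq table of promoters for GRCm38.p6 holds them. That build has the same primary sequence as mm10, the build in the submitters' processing notes. Entries were found for 6 of the 10 genes, and of the genes that rose Cps1, Asl, Arg1 and Gls2 had none. The windows are chrX:10252055-10252229 on the plus strand for Otc, chr2:31470020-31470206 on the plus strand for Ass1 and chr8:22398622-22398871 on the minus strand for Slc25a15. Each line gives the strand of the gene, 5′ to 3′, ends before the first start that RefSeq or GENCODE annotates, and has CG pairs in capitals. The choice to mark CG pairs was made after the sequences were seen.

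Otc: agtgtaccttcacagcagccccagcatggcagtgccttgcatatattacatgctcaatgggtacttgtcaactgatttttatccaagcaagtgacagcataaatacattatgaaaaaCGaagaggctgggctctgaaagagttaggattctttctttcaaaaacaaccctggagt
Ass1: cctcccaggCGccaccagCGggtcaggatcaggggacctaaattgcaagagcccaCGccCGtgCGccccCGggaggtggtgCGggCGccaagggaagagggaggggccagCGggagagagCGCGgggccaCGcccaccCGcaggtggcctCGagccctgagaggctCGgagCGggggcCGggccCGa
Slc25a15: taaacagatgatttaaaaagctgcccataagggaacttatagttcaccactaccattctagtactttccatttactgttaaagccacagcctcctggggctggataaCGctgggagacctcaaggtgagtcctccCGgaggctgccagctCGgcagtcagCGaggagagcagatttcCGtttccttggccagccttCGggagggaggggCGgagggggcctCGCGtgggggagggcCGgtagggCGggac

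The stretches differ in base composition. In the full 250 bases before the start, Otc had 1 CG pair, Slc25a15 had 11 at the start shown and 43 at a second start, and Ass1 had 23, against a median of 6 over the 32851 starts in the table. GC content was 43.6% for Otc, 57.6% and 80.4% for the 2 starts of Slc25a15 and 75.6% for Ass1, against a median of 52.4%. A search of both strands looked for AGAACA (glucocorticoid receptor), TGACG (CREB), TTGCNNAA (C/EBP), CCAAT (NF-Y) and TATAAA (a core promoter box), none of which contains another. These letters occurred in 16.1%, 17.8%, 9.56%, 33.8% and 12.4% of the 32851 windows. Of the 7 windows of the 6 genes, that of Slc25a13 held 1 match to the CREB letters and 1 to the NF-Y letters, and the windows of Otc, Ass1, Nags, Slc25a15 and Glud1 held none of the 5. The windows searched were the full 250 bases, not cut at the first annotated start. Both Slc25a13 matches, 9 to 13 and 18 to 22 bases before the start used, lie inside the span RefSeq gives that gene.

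Levels and differences below are on stated scales. CPM values are counts scaled to the depth of each library, corrected by edgeR's TMM factors. Each log2 fold change is given ± its standard error (SE), and a gene rose or fell where edgeR's quasi-likelihood test gave an adjusted p below 0.05 over the 12274 genes tested. Total counts per library ran from 8551557 to 12994187, and no member had fewer than 490 counts in any library. The largest gap in total count set 5 deeper libraries, Vehicle 4 and PairFed 2 to 5, apart from 10 shallower ones, so depth and group were partly tied. Nothing states that the libraries of a group came from separate animals, so the p-values measure the spread between these samples. All 15 hepatocyte markers were found in every library, with a summed level of 121393 to 144637 CPM in Vehicle, 134020 to 167872 in GDF15 and 128981 to 156104 in PairFed. The median of that sum was 1.18 times the Vehicle value in GDF15, and the median of the members' sum was 1.60 times it. In bulk liver, fewer cells of a type and less RNA per cell cannot be told apart.

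**Figure D1:**
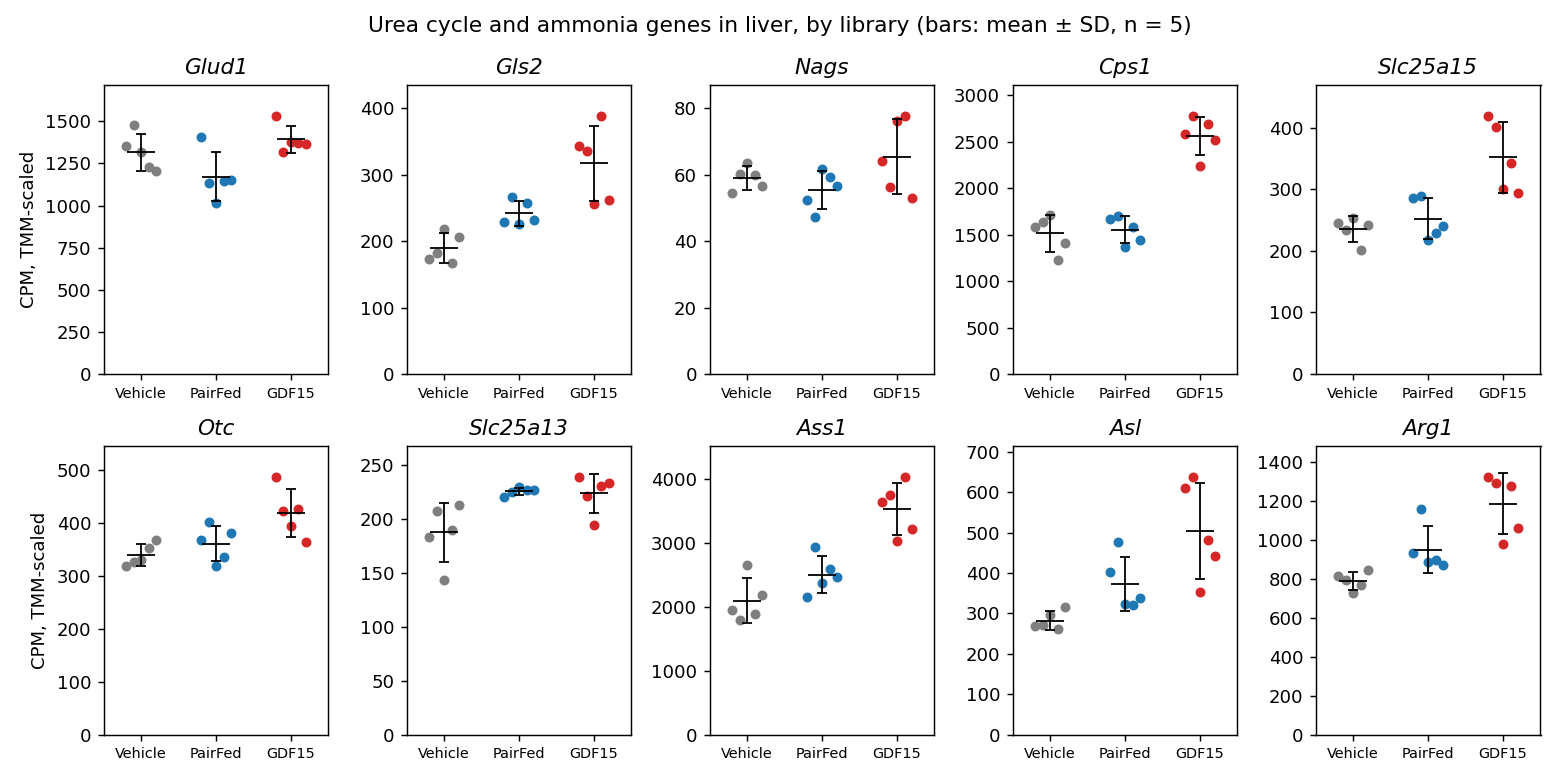
TMM-scaled CPM of the 10 genes in each library, with 1 panel per gene, a linear axis from 0, 1 point per library and bars for mean ± SD of 5 libraries. The GDF15 points of Cps1, Ass1 and Slc25a15 lie above all Vehicle and PairFed points, while those of Nags and Glud1 overlap Vehicle.

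Per kilobase of annotated exon (GENCODE M21), the levels of the 10 genes spanned a wide range. In Vehicle the order was Ass1, Arg1, Glud1, Cps1, Otc, Asl, Gls2, Slc25a13, Slc25a15 and Nags, with means of 869, 355, 313, 273, 80.1, 58.5, 54.5, 49.4, 41.8 and 20.8 CPM per kilobase. The ranges over the 5 Vehicle libraries overlapped between Arg1 and Glud1, between Glud1 and Cps1, and among neighbours from Asl down to Slc25a15. Ass1, Otc and Nags did not overlap their neighbours. In GDF15, Cps1 stood above Glud1, at 461 ± 37.2 against 331 ± 19.3 CPM per kilobase (mean ± SD, n = 5), and the ranges of 403 to 500 and 313 to 364 did not overlap. In PairFed these 2 genes were at 279 ± 26.1 and 278 ± 34.2 CPM per kilobase. These levels assume reads over all annotated exons, and the transcript set behind the counts was not stated.

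The ammonia-producing enzymes were Gls2 and Glud1. Gls2 is the liver form of glutaminase, which frees ammonia from glutamine in the mitochondrion, and it lies on chromosome 10 at 128194635 to 128210004 (mm10). Its CPM was 173, 182, 219, 167 and 206 in Vehicle 1 to 5, 343, 336, 256, 388 and 261 in GDF15 1 to 5, and 229, 267, 225, 258 and 231 in PairFed 1 to 5. All GDF15 and all PairFed libraries were above all Vehicle libraries. Gls2 rose in GDF15 by 0.74 ± 0.11 log2 (1.67-fold, adjusted p = 0.00167, edgeR). In PairFed it was at 0.35 ± 0.11 (adjusted p = 0.127), and GDF15 against PairFed stood at 0.39 ± 0.11 (adjusted p = 0.115). Its last bases overlap Spryd4 on the opposite strand, and Spryd4 was at -0.03 ± 0.08 in GDF15 vs Vehicle (adjusted p = 0.893, edgeR).

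Glud1 encodes glutamate dehydrogenase, which releases ammonia from glutamate and lies on chromosome 14 at 34310727 to 34345033. It was at 1353, 1481, 1315, 1226 and 1205 CPM in Vehicle 1 to 5, 1532, 1318, 1378, 1369 and 1365 in GDF15 1 to 5, and 1408, 1133, 1015, 1148 and 1152 in PairFed 1 to 5. All 3 groups overlapped. The log2 fold change was 0.08 ± 0.08 in GDF15 vs Vehicle (adjusted p = 0.670), -0.17 ± 0.08 in PairFed vs Vehicle (adjusted p = 0.302) and 0.25 ± 0.08 in GDF15 vs PairFed (adjusted p = 0.178, edgeR). PairFed 1 was the single PairFed library inside the GDF15 range, and without it the last difference was 0.32 (adjusted p = 0.0383).

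Nags and Cps1 make up the entry to the cycle. Nags makes N-acetylglutamate, the activator that CPS1 needs, and lies on chromosome 11 at 102145513 to 102149528. It had the lowest level of the 10, at 59.0 ± 3.51 CPM in Vehicle, 65.4 ± 11.2 in GDF15 and 55.4 ± 5.77 in PairFed (mean ± SD, n = 5 each). The GDF15 libraries were spread, with GDF15 1, 3 and 4 at 64.0, 76.1 and 77.7 CPM above all Vehicle libraries and GDF15 5 at 53.0 CPM below them. No difference was past the threshold: 0.15 ± 0.10 in GDF15 vs Vehicle (adjusted p = 0.488), -0.09 ± 0.10 in PairFed vs Vehicle (adjusted p = 0.688) and 0.24 ± 0.10 in GDF15 vs PairFed (adjusted p = 0.305, edgeR). An antisense gene, Gm11586, overlaps Nags, and whether the counting used strand was not stated.

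Cps1 encodes carbamoyl phosphate synthetase, the mitochondrial enzyme that fixes ammonia and sets the rate of the cycle. The gene lies on chromosome 1 at 67122426 to 67231267. Its CPM was 1579, 1640, 1713, 1224 and 1414 in Vehicle 1 to 5, 1669, 1699, 1365, 1581 and 1437 in PairFed 1 to 5, and 2579, 2775, 2238, 2693 and 2511 in GDF15 1 to 5. The lowest GDF15 library was above the highest library of both other groups, while PairFed and Vehicle lay over each other. Cps1 rose by 0.76 ± 0.09 log2 in GDF15 vs Vehicle (adjusted p = 0.000274) and by 0.72 ± 0.09 in GDF15 vs PairFed (1.65-fold, adjusted p = 0.000652, edgeR). In PairFed vs Vehicle it was at 0.03 ± 0.09 (adjusted p = 0.886), and this sign turned without Vehicle 4 (-0.04) and without PairFed 2.

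Slc25a15 and Otc carry the cycle on inside the mitochondrion. Slc25a15 is the carrier that exchanges ornithine for citrulline, and its upstream stretch is shown above. It was at 246, 234, 254, 201 and 243 CPM in Vehicle 1 to 5, 286, 289, 218, 229 and 240 in PairFed 1 to 5, and 419, 401, 300, 343 and 294 in GDF15 1 to 5. All GDF15 libraries were above the others, though GDF15 5 exceeded PairFed 2 by little. Slc25a15 rose by 0.58 ± 0.11 log2 in GDF15 vs Vehicle (1.49-fold, adjusted p = 0.00677) and by 0.48 ± 0.11 in GDF15 vs PairFed (1.39-fold, adjusted p = 0.0479, edgeR). The second call was near the threshold: it held in 6 of the 15 fits that each left out 1 library, whose adjusted p ran from 0.0287 to 0.143.

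Otc encodes ornithine transcarbamylase, which makes citrulline from carbamoyl phosphate and ornithine. It was at 318, 327, 331, 353 and 369 CPM in Vehicle 1 to 5, 488, 424, 394, 427 and 364 in GDF15 1 to 5, and 368, 403, 319, 336 and 381 in PairFed 1 to 5. GDF15 5 lay inside the Vehicle range, and the other GDF15 libraries lay above it. Otc rose by 0.30 ± 0.08 log2 (1.23-fold, adjusted p = 0.0488, edgeR), the smallest rise among the 7. That call held in 5 of the 15 fits without 1 library (adjusted p from 0.0283 to 0.130). It held in 3 of 11 other settings, and was lost with upper-quartile factors, no filter, limma-voom, the 2-group fit, the depth term and the replicate block (adjusted p from 0.0534 to 0.0799), in the shallower libraries (adjusted p = 0.0976) and with the immediate-early covariate (adjusted p = 0.856). GDF15 vs PairFed was at 0.21 ± 0.08 (adjusted p = 0.243).

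Slc25a13 and the 3 enzymes of the cytosol complete the cycle. Slc25a13, on chromosome 6 at 6041218 to 6217304, encodes citrin, which exports aspartate from the mitochondrion for the next step. It was at 188 ± 27.5 CPM in Vehicle, 224 ± 17.7 in GDF15 and 226 ± 3.50 in PairFed (mean ± SD, n = 5 each). Every PairFed library, at 220 to 230 CPM, was above every Vehicle library, of which Vehicle 3 at 144 CPM was the lowest. The differences were 0.25 ± 0.09 log2 in GDF15 vs Vehicle (adjusted p = 0.127) and 0.27 ± 0.09 in PairFed vs Vehicle (adjusted p = 0.141, edgeR). GDF15 vs PairFed was at -0.01 ± 0.09 (adjusted p = 0.967), a sign that turned without GDF15 3 (0.03).

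Ass1 encodes argininosuccinate synthetase, which joins citrulline and aspartate and was the most abundant of the 10 per kilobase. Its CPM was 1957, 1797, 2659, 1881 and 2194 in Vehicle 1 to 5, 2152, 2932, 2374, 2586 and 2470 in PairFed 1 to 5, and 3645, 3751, 3025, 4035 and 3220 in GDF15 1 to 5. Every GDF15 library was above every other library. Vehicle 3 stood above the other Vehicle libraries and inside the PairFed range. Ass1 rose by 0.75 ± 0.11 log2 in GDF15 vs Vehicle (1.69-fold, adjusted p = 0.00154) and by 0.50 ± 0.11 in GDF15 vs PairFed (1.41-fold, adjusted p = 0.0443, edgeR). The second call held in 6 of the 15 fits without 1 library (adjusted p from 0.0202 to 0.126). In PairFed vs Vehicle it was at 0.25 ± 0.11 (adjusted p = 0.244).

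Asl encodes argininosuccinate lyase, which yields arginine and fumarate, and lies on chromosome 5 at 130011258 to 130024381. It was at 269, 271, 297, 261 and 315 CPM in Vehicle 1 to 5, 609, 638, 352, 480 and 443 in GDF15 1 to 5, and 403, 477, 323, 321 and 338 in PairFed 1 to 5. Both GDF15 and PairFed lay above Vehicle without overlap, and GDF15 3 and 5 were inside the PairFed range. Its rise in GDF15 vs Vehicle was the steepest of the 10, at 0.84 ± 0.15 log2 (1.79-fold, adjusted p = 0.00645, edgeR), with the widest spread. PairFed vs Vehicle was at 0.40 ± 0.15 (adjusted p = 0.186), and GDF15 vs PairFed at 0.44 ± 0.15 (adjusted p = 0.201).

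Arg1 encodes liver arginase, which splits arginine into urea and ornithine, and lies on chromosome 10 at 24915207 to 24927470. It was at 818, 793, 726, 767 and 849 CPM in Vehicle 1 to 5, 1326, 1292, 979, 1278 and 1064 in GDF15 1 to 5, and 934, 1161, 886, 897 and 871 in PairFed 1 to 5. All GDF15 and all PairFed libraries were above all Vehicle libraries. PairFed 2 stood apart from its group and lay inside the GDF15 range. Arg1 rose by 0.59 ± 0.09 log2 in GDF15 vs Vehicle (adjusted p = 0.00228, edgeR). PairFed vs Vehicle was at 0.26 ± 0.09 (adjusted p = 0.169), or 0.18 without PairFed 2 (adjusted p = 0.359). GDF15 vs PairFed was at 0.32 ± 0.09 (adjusted p = 0.129), and without PairFed 2 it passed the threshold at 0.41 (adjusted p = 0.0472).

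**Figure D2:**
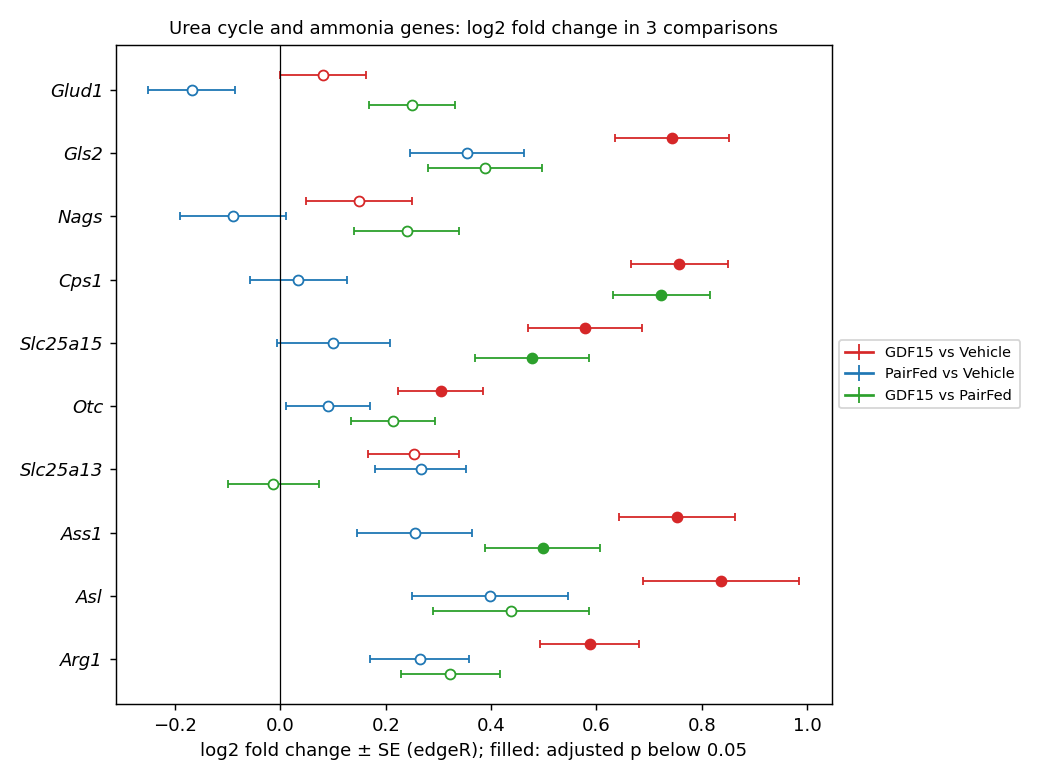
Log2 fold change ± SE of the 10 genes in the 3 comparisons (x axis), ordered along the pathway from ammonia release to urea (y axis), with filled points where edgeR's adjusted p was below 0.05. In GDF15 vs Vehicle 7 genes are filled, in GDF15 vs PairFed 3 (Cps1, Slc25a15 and Ass1), and in PairFed vs Vehicle none.

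Counted over the members, GDF15 vs Vehicle gave 7 rises of 10, against a background of 2.02% of all tested genes that rose. In 6 of the 10 the GDF15 libraries were all above the Vehicle libraries, which held for 2.48% of all genes. The median log2 fold change was 0.58 over the members and -0.0046 over all genes. The called genes were 4 of the 5 enzymes of the cycle proper with groups that did not overlap (Cps1, Ass1, Asl and Arg1), the fifth enzyme Otc, the ornithine carrier and Gls2. Those not past the threshold were the activator enzyme Nags, the aspartate carrier Slc25a13 and Glud1. With a score of immediate-early genes as a covariate, 1 of the 10 passed, Cps1, at 0.67 ± 0.12 (adjusted p = 0.0442), while Ass1 was at 0.77 ± 0.15 (adjusted p = 0.10) and Asl at 0.48 ± 0.15 (adjusted p = 0.481).

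Immediate-early genes are switched on quickly by many stimuli, stress and handling among them. In GDF15 vs Vehicle, 14 of 20 tested had an unadjusted p below 0.05 in edgeR, 13 higher and 1 lower. DESeq2 called 6 and limma-voom 0. The 20 genes had a median of 0.90 log2, and edgeR called 0 of them. Their mean log2 CPM, set to a Vehicle mean of 0, had a range of -0.36 to 0.34 among Vehicle libraries, -0.09 to 1.18 for GDF15 and 0.10 to 0.87 for PairFed. The summed level of the 21 genes listed was 492 to 942 CPM in Vehicle, 680 to 2281 in GDF15 and 753 to 1411 in PairFed. The score was partly tied to group, so the fit with the covariate cannot tell score and group apart. The part of the immediate-early genes in the members' rise was not tested.

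PairFed vs Vehicle took 0 of the 10 past the threshold of edgeR's test, against a background of 0.285% of genes that changed. At an unadjusted p below 0.05, 5 of the 10 were higher (Ass1, Asl, Arg1, Slc25a13 and Gls2), and DESeq2 and limma-voom each called 0. In 4 of the 10 (Asl, Arg1, Slc25a13 and Gls2) all PairFed libraries were above all Vehicle libraries, against 2.21% of all genes. The median over the members was 0.18 and over all genes -0.00050. Because 4 of 5 PairFed libraries were deeper and 4 of 5 Vehicle libraries shallower, depth was partly tied to pair feeding. In the shallower libraries alone, with 1 PairFed library, Ass1 was at -0.0029 log2 in PairFed vs Vehicle.

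GDF15 vs PairFed asks whether GDF15 and pair feeding differ at a like amount of food. It gave 3 rises of 10 (Cps1, Ass1 and Slc25a15), against 0.562% of all genes that rose, and these were also the 3 whose groups did not overlap, which held upward for 1.31% of genes. The median was 0.36 over the members and 0.00071 over all genes, and 9 of the 10 were higher in GDF15, each with an unadjusted p below 0.05. DESeq2 called 5 and limma-voom 2. With a term for the deeper libraries none of the 10 stayed past the threshold in this comparison: Cps1 was at 0.52 ± 0.12 (adjusted p = 0.133), Ass1 at 0.53 ± 0.17 (adjusted p = 0.376) and Slc25a15 at 0.27 ± 0.14 (adjusted p = 0.603). No GDF15 library was deeper, and PairFed 1 was the 1 shallower PairFed library. In GDF15 vs Vehicle the same term left 6 of the 10 past the threshold, all but Otc of the 7.

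**Figure D3:**
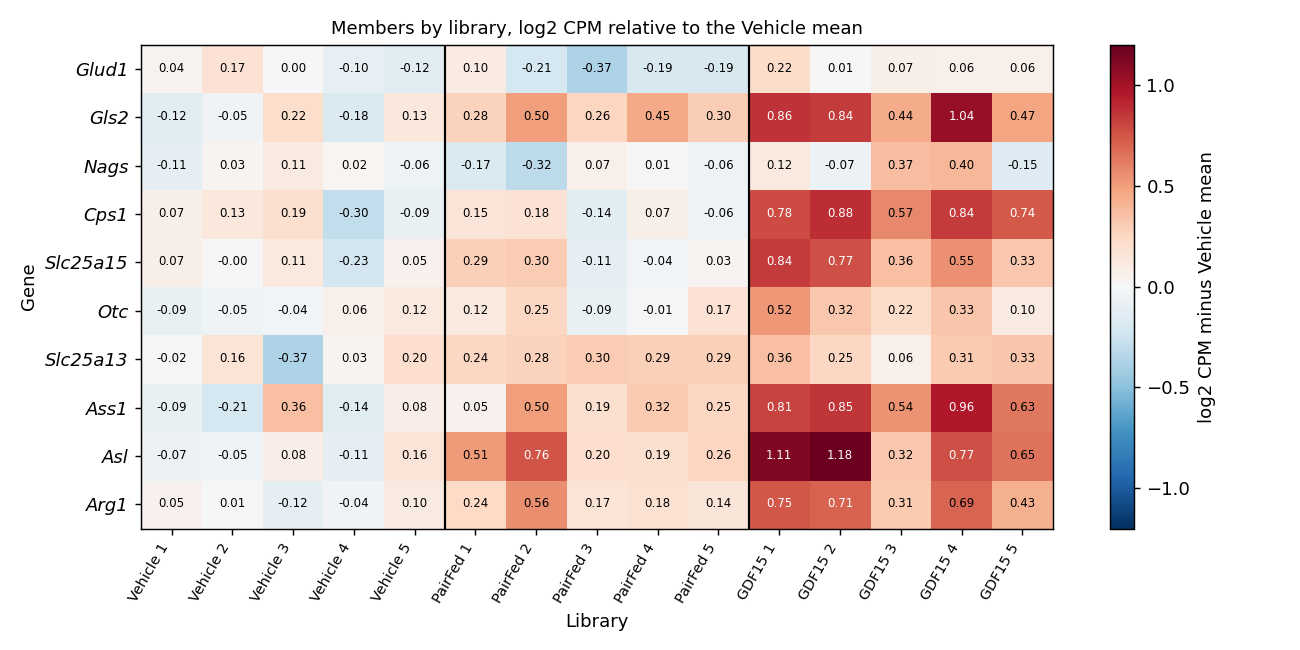
Log2 CPM of each gene (rows, in pathway order) in each library (columns, by group) minus the Vehicle mean of that gene, from blue for lower to red for higher. PairFed 2 is the reddest PairFed library for 7 genes, and GDF15 3 is the palest GDF15 library for 6.

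Within groups, the members differed in how they varied together. Over the 45 pairs of members, the Pearson r of log2 CPM after removing group means (15 libraries) had a median of 0.37 and was above 0 in 32. It ran from -0.56 for Asl and Nags to 0.88 for Asl and Slc25a15, and Cps1 and Otc were at 0.11. These values share the libraries and their depth, are given as a description, and were not compared with other genes. PairFed 2 had the highest value of its group for 7 of the 10 (Cps1, Otc, Ass1, Asl, Arg1, Slc25a15 and Gls2) and the lowest for Nags. GDF15 3 had the lowest value of its group for 6 of the 10 (Cps1, Ass1, Asl, Arg1, Slc25a13 and Gls2), while GDF15 1 had the highest for 5 (Otc, Arg1, Slc25a15, Slc25a13 and Glud1). Vehicle 4 had the lowest Vehicle value for 4 (Cps1, Asl, Slc25a15 and Gls2). Nags was lowest in the PairFed library in which the 5 enzymes Cps1, Otc, Ass1, Asl and Arg1 were highest.

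Among 11238 other genes (mean log2 CPM 1 or more), the 5 whose log2 CPM was most like the members' mean profile over the 15 libraries were Sds, Gnmt, Dpyd, Sfxn2 and Adk. Their Pearson r with that profile was 0.96, 0.94, 0.93, 0.93 and 0.93, given as a description, since all share the libraries and their 3 groups. Sds encodes serine dehydratase, which releases ammonia from serine, and Gnmt encodes glycine N-methyltransferase, which uses up methyl groups from S-adenosylmethionine. Dpyd starts pyrimidine breakdown, Sfxn2 is a mitochondrial sideroflexin and Adk phosphorylates adenosine. In GDF15 vs Vehicle they were higher by 1.57, 0.71, 0.37, 0.44 and 0.23 log2. A rise there was built into the choice, because the profile itself was higher in GDF15. After removing group means, r was 0.78, 0.83, 0.81, 0.64 and 0.76, in the same libraries that chose the 5 genes.

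The genes around the cycle were read from 6 further lists with 64 tested members, of which 10 rose in GDF15 vs Vehicle and none fell, against the 2.02% of all genes that rose. In PairFed vs Vehicle edgeR called 0 of the 64, DESeq2 called 5 and limma-voom 0. Of the 64, 20 had an unadjusted p below 0.05 in edgeR, 17 higher and 3 lower. In GDF15 vs PairFed 2 of the 64 rose, Sds and Ppargc1a, against 0.562% of all genes that rose. For the rises in GDF15 vs Vehicle in each list below, the background is the same 2.02%.

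Among 12 tested partners in glutamine and ammonia handling, 2 rose in GDF15 vs Vehicle. Slc7a2, a carrier that brings arginine and other cationic amino acids into hepatocytes, was at 255 ± 48.0 CPM in Vehicle, 543 ± 142 in GDF15 and 440 ± 77.1 in PairFed, and rose by 1.09 ± 0.19 log2 (adjusted p = 0.00813, edgeR). Car5a, the mitochondrial carbonic anhydrase that supplies bicarbonate to CPS1, rose by 0.39 ± 0.09 (adjusted p = 0.0212) from 56.1 ± 6.97 to 73.4 ± 8.58 CPM. In PairFed Car5a was at 68.2 ± 2.41 CPM, and GDF15 vs PairFed stood at 0.11 ± 0.09 (adjusted p = 0.644, edgeR). For Slc7a2, PairFed vs Vehicle was at 0.79 ± 0.19 (adjusted p = 0.0797) and GDF15 vs PairFed at 0.30 ± 0.19 (adjusted p = 0.528, edgeR). Glul, the glutamine synthetase of hepatocytes at the central vein, was at 0.30 ± 0.10 in GDF15 vs Vehicle (adjusted p = 0.135). Its level was 1768 ± 219 CPM in Vehicle and 2176 ± 359 in GDF15. The list median was 0.33.

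Of 13 tested genes that release or pass on the nitrogen of other amino acids, 4 rose in GDF15 vs Vehicle, with a list median of 0.25. Sds rose from 171 ± 20.6 to 508 ± 123 CPM, by 1.57 ± 0.17 log2 (adjusted p = 0.000274), and was also higher than in PairFed, by 1.08 ± 0.17 (adjusted p = 0.00977, edgeR). Hal, which frees ammonia from histidine, rose by 0.63 ± 0.15 (adjusted p = 0.0422). The transaminase Got1, which makes aspartate in the cytosol, rose by 1.63 ± 0.36 (adjusted p = 0.0300), with a wide spread of 516 ± 218 CPM in GDF15. The alanine transaminase Gpt2 rose by 0.29 ± 0.07 (adjusted p = 0.0398) and had nearly the same level in PairFed, at 776 ± 43.1 against 751 ± 47.5 CPM in GDF15. Hal was at 232 ± 46.2 CPM in PairFed against 279 ± 58.6 in GDF15, and Got1 was at 273 ± 132 in PairFed. GDF15 vs PairFed stood at 0.27 ± 0.15 for Hal (adjusted p = 0.474) and 0.92 ± 0.35 for Got1 (adjusted p = 0.274, edgeR).

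In the shuttle of aspartate, malate and glutamate, 1 of 7 tested genes rose in GDF15 vs Vehicle, with a list median of 0.12. It was Slc25a22, a carrier of glutamate into mitochondria, at 0.92 ± 0.16 log2 (adjusted p = 0.00573, edgeR). Slc25a22 was at 0.50 ± 0.16 in PairFed vs Vehicle (adjusted p = 0.143) and 0.42 ± 0.16 in GDF15 vs PairFed (adjusted p = 0.248, edgeR). Of 11 genes of arginine and ornithine use, edgeR called 0 in GDF15 vs Vehicle, DESeq2 called 2 and limma-voom 0. In edgeR, 5 of the 11 had an unadjusted p below 0.05, 4 higher and 1 lower. Of 3 sirtuin enzymes that act on CPS1, OTC or GLUD1, edgeR, DESeq2 and limma-voom called 0 and 1 had an unadjusted p below 0.05. Sirt5, which activates CPS1 by removing acyl groups, was at 0.05 ± 0.10 (adjusted p = 0.862).

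Among 18 regulators known to act on genes of the cycle, 3 rose in GDF15 vs Vehicle, with a list median of 0.05. Cebpb, a factor of the C/EBP family, rose by 1.26 ± 0.23 log2 (adjusted p = 0.0125), from 130 ± 32.3 to 312 ± 114 CPM. Klf15, a factor that promotes amino acid breakdown in fasting, rose by 0.79 ± 0.15 (adjusted p = 0.0125). Ppargc1a, a coactivator of fasting genes, rose by 1.02 ± 0.17 (adjusted p = 0.00371) and was also higher than in PairFed, by 0.86 ± 0.17 (adjusted p = 0.0253, edgeR). GDF15 vs PairFed stood at 0.80 ± 0.23 for Cebpb (adjusted p = 0.15) and 0.53 ± 0.15 for Klf15 (adjusted p = 0.134, edgeR).

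**Figure D4:**
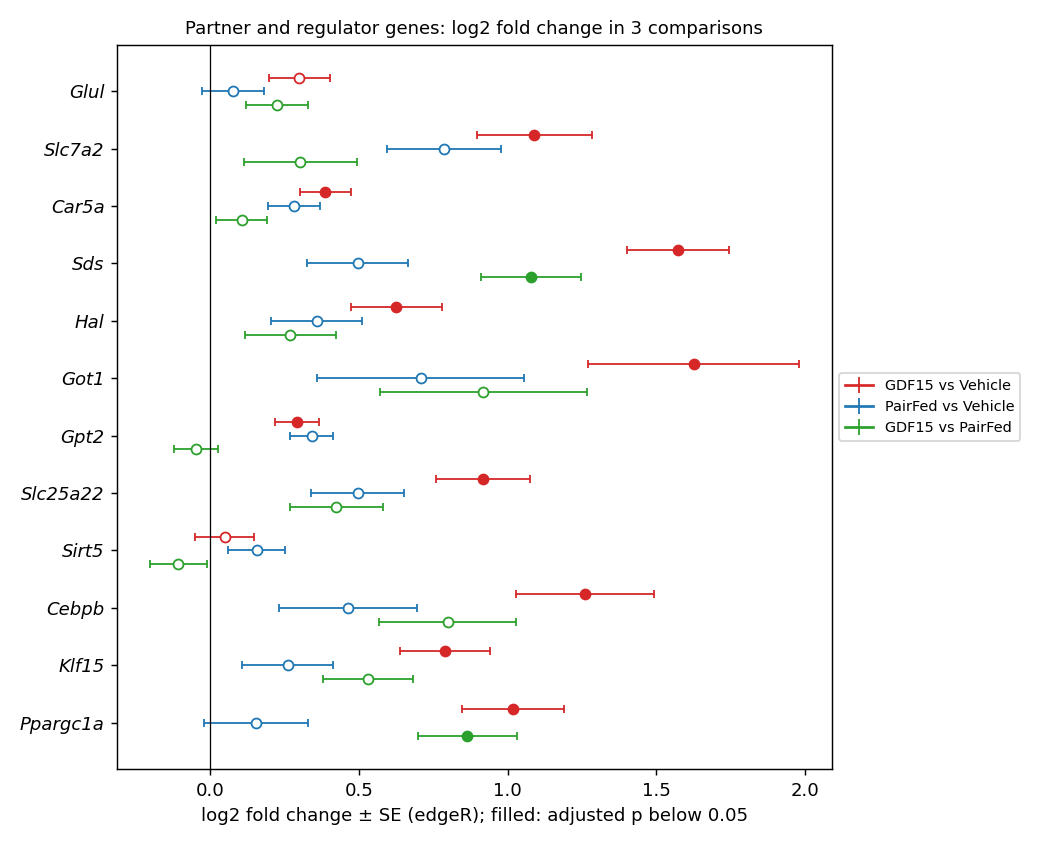
Log2 fold change ± SE (x axis) in the 3 comparisons of the partner and regulator genes that passed the threshold in any of them, plus Glul and Sirt5, with filled points where edgeR's adjusted p was below 0.05. Sds and Ppargc1a are the 2 genes filled in GDF15 vs PairFed.

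Markers of the zones of the liver lobule were read beside the members. Of 10 periportal markers 2 rose in GDF15 vs Vehicle, Hal and Sds, against 2.02% of all tested genes. Both are also counted above among the genes that release or pass on nitrogen. The median of the 10 was 0.19. Their summed level was 4610 to 7090 CPM in Vehicle, 6228 to 11298 in GDF15 and 6101 to 9038 in PairFed. Pck1 had the highest CPM of the 10, at 1698 ± 765 in Vehicle and 4204 ± 1390 in GDF15, and was not past the threshold (adjusted p = 0.0539, edgeR). Of 12 pericentral markers edgeR called 0 (7 had an unadjusted p below 0.05, DESeq2 called 3 and limma-voom 0), with a median of 0.28. The 12 summed to 6185 to 11253 CPM in Vehicle, 8590 to 13141 in GDF15 and 8627 to 10602 in PairFed. The summed markers of Kupffer cells and macrophages were 436 to 619 CPM in Vehicle, 287 to 600 in GDF15 and 380 to 511 in PairFed. In GDF15 vs Vehicle, edgeR called 0 of these 10 (1 had an unadjusted p below 0.05, and DESeq2 and limma-voom called 0). Lymphocyte markers summed to 8.02 to 24.6 CPM in Vehicle, 4.41 to 7.68 in GDF15 and 4.98 to 12.2 in PairFed, and 2 of 6 tested fell in GDF15 vs Vehicle, Cd3g and Cd8a, where 0.88% of all tested genes fell. Monocyte and neutrophil markers summed to 142 to 238 CPM in Vehicle, 116 to 221 in GDF15 and 112 to 185 in PairFed, and 1 of 6 tested fell, Ly6c2. Stellate cell markers summed to 400 to 712 CPM in Vehicle, 228 to 557 in GDF15 and 327 to 544 in PairFed, and endothelial markers to 80.2 to 126, 53.6 to 158 and 94.1 to 177 CPM. Of these 8 and 7 genes, edgeR, DESeq2 and limma-voom each called 0 in GDF15 vs Vehicle, and 0 had an unadjusted p below 0.05. Bile duct markers summed to 193 to 468 CPM in Vehicle, 125 to 312 in GDF15 and 151 to 265 in PairFed, with 0 of 5 called by edgeR in GDF15 vs Vehicle (2 had an unadjusted p below 0.05, DESeq2 called 1 and limma-voom 0). In PairFed vs Vehicle 1 of the 5 fell, Sox9, by 1.31 log2 (adjusted p = 0.0336, edgeR), where 0.285% of all tested genes changed. No marker was at 0 in any library. The part of these cell types in the members' rise was not tested.

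**Figure D5:**
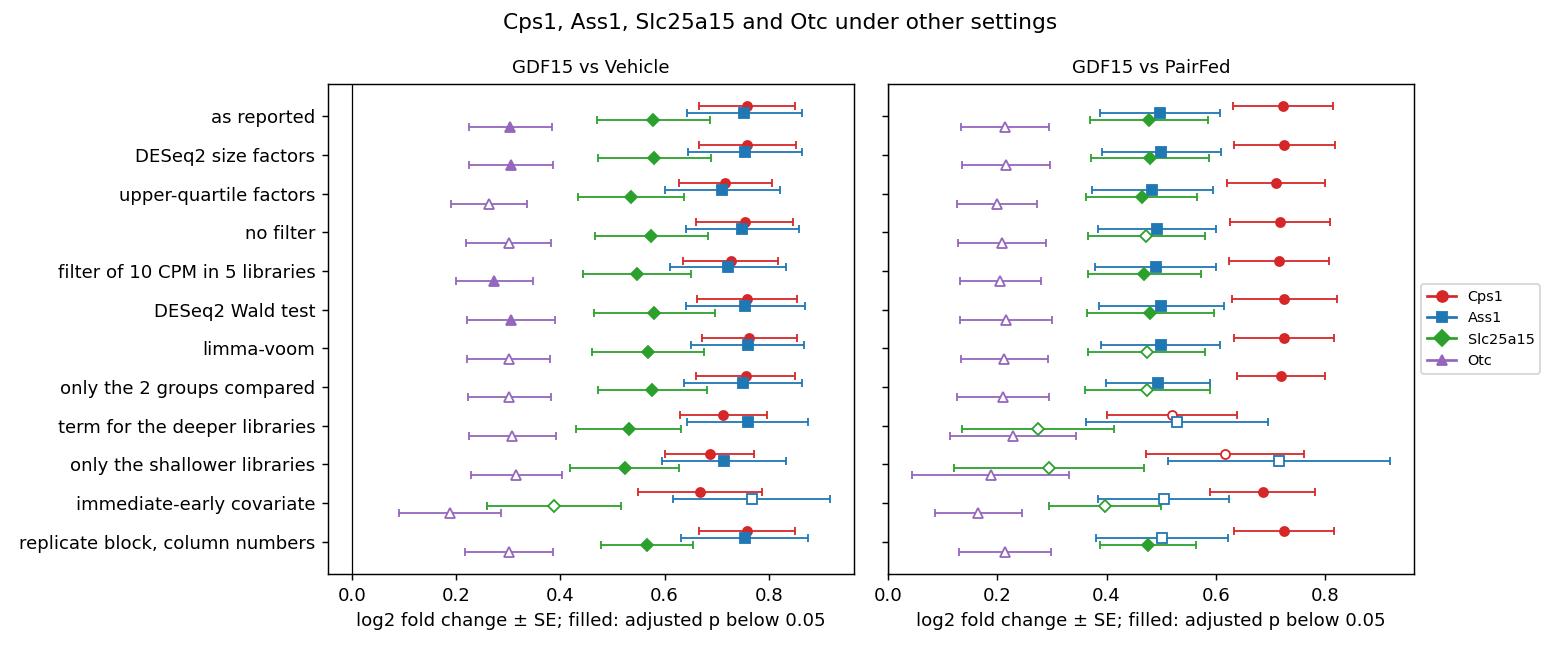
Log2 fold change ± SE (x axis) of Cps1, Ass1, Slc25a15 and Otc under the reported fit and 11 other settings (y axis), for GDF15 vs Vehicle on the left and GDF15 vs PairFed on the right, filled where the adjusted p was below 0.05. Cps1 is filled at every setting on the left, and on the right it is open in 2 of them, with the term for the deeper libraries and in the shallower libraries alone.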

How the data were processed

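Per the labels' protocols, liver tissue was lysed in TRIzol, total RNA was purified on RNeasy and a directional kit was used for the libraries. Salmon, DESeq2 and mm10 are named, without versions or roles, in the submitters' processing notes. The authors deposited 1 table of expected counts (estimated counts per gene symbol, whole numbers not scaled to depth). No source used here gives the transcript set or the strand setting. Columns were assigned to groups by name and keep the number in that name.

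Genes were filtered with filterByExpr (count of 10, total of 15) in edgeR 4.0.16 on R 4.3.3, which left 12274 genes with 99.9% of the counts. Libraries were scaled by TMM, and all 15 entered 1 robust quasi-likelihood fit, with Benjamini-Hochberg adjustment over all tested genes of each comparison. SEs were derived from the F statistic. The common biological coefficient of variation was 13.3%. The script was tested on simulated data. Log2 CPM values used a prior count of 2. Alternatives included DESeq2 1.42.0, limma-voom (limma 3.58.1) and leaving out each library. The members, lists, motifs and naming rule (all members, list genes past the threshold, and Glul, Sirt5 and Pck1) were chosen with earlier results of these data known. Some listed genes are not reported here. Gene positions are those of RefSeq on GRCm38.p6, in which all 10 symbols matched.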

Additional observations from a re-analysis of the deposited data

Results flagged for a closer look

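In the PairFed group, Arg1 in PairFed 2 was at 1161 CPM, far from the other 4 libraries (871 to 934 CPM): the gap was 0.781 of the group's range. In the GDF15 group, Glud1 in GDF15 1 was at 1532 CPM, far from the other 4 (1318 to 1378 CPM), with a gap of 0.721 of the range. Each of the 10 genes was looked at in each of the 3 groups, and chance flags about 1 in 20 such sets. PairFed 2 had the highest value of its group for 7 members, Arg1 included, and GDF15 1 for 5, Glud1 included.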

How the results depend on the processing

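The number of genes changed in GDF15 vs Vehicle, 356, was 642 with DESeq2, 194 with only the 2 groups compared, 151 in the shallower libraries and 9 with the immediate-early covariate, and 134 (without GDF15 2) to 476 (without GDF15 3) with 1 library left out. For PairFed vs Vehicle, 35 became 339 with DESeq2 and 0 with the term for the deeper libraries, in the shallower libraries and with the covariate, and ran from 0 (without Vehicle 1 or 3, or PairFed 2 or 4) to 135 (without PairFed 1). For GDF15 vs PairFed, 96 became 259 with DESeq2, 9 with the depth term, 0 in the shallower libraries and 51 with the covariate, and ran from 21 (without PairFed 4) to 171 (without PairFed 1). Members changed in GDF15 vs Vehicle were 1 with the covariate and 6 or 7 in the other settings run. In GDF15 vs PairFed they were 5 with DESeq2, 0 with the depth term, 0 in the shallower libraries (with 1 PairFed library) and 1 with the covariate, and 1 to 4 with 1 library left out. In PairFed vs Vehicle they were 0 in every setting run. The call of Ass1 in GDF15 vs PairFed was lost without Vehicle 1 or 5, GDF15 1, 2 or 4, or PairFed 1, 3, 4 or 5, and that of Slc25a15 without Vehicle 1, 2 or 5, GDF15 1, 2 or 4, or PairFed 3, 4 or 5. Signs turned for small differences. With the covariate, PairFed vs Vehicle was -0.018 for Cps1, -0.010 for Slc25a15 and 0.0094 for Nags, and GDF15 vs Vehicle was -0.013 for Glud1. In the shallower libraries, PairFed vs Vehicle was -0.0029 for Ass1 and 0.069 for Glud1, and GDF15 vs PairFed was -0.015 for Glud1 and 0.023 for Slc25a13 (0.015 with the depth term). With 1 library left out, Cps1 in PairFed vs Vehicle ran from -0.040 to 0.077 and Slc25a13 in GDF15 vs PairFed from -0.038 to 0.034. The cause was not tested. Of the genes changed, 69.7% were higher in GDF15 vs Vehicle (58.7% with upper-quartile factors) and 51.4% in PairFed vs Vehicle (32.5% with those factors, 38.5% with a filter of 10 CPM). The columns of each group are numbered 1 to 5, and nothing in the labels says that a number ties animals together. Of 15 pairs of libraries with the same number in 2 groups, 4 had a correlation over 0.1 between their deviations from the group means (range -0.298 to 0.294), and 5 of 15 libraries correlated best with their own number, so the numbers were not taken to pair the samples. With the number as a replicate block, an alternative chosen after seeing the data, 361 genes changed in GDF15 vs Vehicle, 98 in PairFed vs Vehicle and 112 in GDF15 vs PairFed, with 6, 0 and 2 members. Under the block the adjusted p was 0.0734 for Otc in GDF15 vs Vehicle and 0.0747 for Ass1 in GDF15 vs PairFed.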
